A study of Rattus norvegicus with 3 samples.

Results

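The miR-181 family is a set of microRNAs (miRNAs, short RNAs that guide repression of matching messenger RNAs) made from paired hairpins at separate places in the genome. Its members were taken here as the rat-named miR-181a, miR-181b, miR-181c and miR-181d with both arms of each hairpin, 5p and 3p, chosen by name alone. The rule found 10 miRNA names in 12 rows, of 891 names in all, 499 of them rat-named. The data describe small RNA of extracellular vesicles (EVs, membrane particles released into the medium) from primary astrocytes of neonatal wild-type rats, with 1 library for each of 3 conditions. The astrocytes received IL-4 with complement C1q from day 6 for 24 h, or IL-1α, TNF-α and C1q over the same time, or no treatment. The inflammatory mixture is known for making astrocytes reactive, and IL-4 for anti-inflammatory signalling. The labels give neither the number of animals nor of cultures behind a library, and while the design text has the vesicles taken from conditioned medium, a line of the protocol has RNA from the harvested cells themselves. The labels put all 3 libraries in the same batch, and the series title ties IL-4/C1q vesicles to recovery after stroke and to leukocytes.

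In the miR-181 hairpins the 5p arm usually gives the main product and the 3p arm a minor one. Bases 2 to 8 of the mature miRNA, the seed, choose the targets, so members that share a seed can act on overlapping messages. In the brain miR-181 is known from neurons and glia, and in rodent models of ischemia miR-181a has been linked to lower levels of the survival protein Bcl-2 and the chaperone GRP78. Outside the brain miR-181a is known for setting the sensitivity of T cell receptors during lymphocyte development.

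Mature sequences of 9 of the 10 members were found in RefSeq (rat build GRCr8); miR-181b-2-3p was not matched. The 5p arms are shown first because they hold nearly all counts and differ so little from each other. Capitals mark the seed, and each sequence runs 5′ to 3′.
miR-181a-5p: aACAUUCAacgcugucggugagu
miR-181b-5p: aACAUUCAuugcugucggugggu
miR-181c-5p: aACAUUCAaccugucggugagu
miR-181d-5p: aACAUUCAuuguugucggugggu

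These 4 share the seed ACAUUCA, which no other of 693 mature rat miRNAs in the table has. Counted from 1 at the 5′ end, miR-181d-5p differs from miR-181b-5p by the single change C12U, and miR-181b-5p differs from miR-181a-5p by A9U, C10U and A21G. miR-181c-5p equals miR-181a-5p with the base at position 11 removed. Because of this likeness, reads could be divided between rows. miR-181a-5p and miR-181b-5p each had 2 rows with equal counts, summed here, while every other member had 1 row. The rows of miR-181a-5p, miR-181b-5p and miR-181d-5p all held fractions in the IL-4/C1q and untreated libraries. How many reads were so divided is not given in the sources used here.

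The 3p arms are shown because most of them belong to 1 hairpin each and so tell the hairpins apart.
miR-181a-1-3p: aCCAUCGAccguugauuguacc
miR-181b-1-3p: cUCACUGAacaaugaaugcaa
miR-181a-2-3p: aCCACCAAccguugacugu
miR-181c-3p: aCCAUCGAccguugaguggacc
miR-181d-3p: cCACCGGGggaugaauguca

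The seed CCAUCGA is shared by miR-181c-3p and miR-181a-1-3p, and the changes U16G and U19G lead from miR-181a-1-3p to miR-181c-3p. The other 3p seeds differ. In RefSeq the hairpins lie as pairs on the plus strand. Mir181a-1 and Mir181b1 lie on chromosome 13 with 61 bases between them, and miR-181a-1-3p comes from chr13:52037121-52037142. Mir181a2 and Mir181b2 lie on chromosome 3, within the span of the gene Nr6a1, with 986 bases between them. Mir181c and Mir181d lie on chromosome 19 with 77 bases between them. Both hairpins of the chromosome 19 pair are printed because their arms differed from the untreated library in the direction opposite to the main a and b members; here capitals mark the 5p and 3p arms.
Mir181c, chr19:40888291-40888396: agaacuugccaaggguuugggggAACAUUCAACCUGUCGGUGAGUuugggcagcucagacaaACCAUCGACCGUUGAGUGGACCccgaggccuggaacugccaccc
Mir181d, chr19:40888474-40888556: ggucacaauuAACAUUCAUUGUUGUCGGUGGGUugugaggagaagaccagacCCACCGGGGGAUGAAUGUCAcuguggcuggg

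The libraries held 7779718 miRNA counts for IL-4/C1q, 12327301 for IL-1α/TNF-α/C1q and 6318839 for untreated cells. Levels are in CPM, counts per 1e6 miRNA counts of the library. With 1 library per condition there is no replicate check: a ratio compares libraries, and its exact 95% interval covers counting error only. PCR copies are not independent molecules, so the interval may be too narrow even for that. All 5 astrocyte markers fixed for the check were above 0, with a summed level of 524606 CPM with IL-4/C1q, 484412 CPM with IL-1α/TNF-α/C1q and 478981 CPM in untreated cells. Some of them, such as miR-21-5p and miR-143-3p, are not confined to astrocytes. miR-21-5p alone held 386922, 365214 and 357921 CPM of these sums, in the same order. Of the 5, miR-21-5p and miR-143-3p were higher in both treated libraries than in the untreated one, and miR-9a-5p, miR-125b-5p and miR-29a-3p were lower; the largest ratio was that of miR-143-3p, at 49047 and 30577 CPM, against 12140 CPM. The untreated library stood apart in markers of other cells. The 5 epithelial markers summed to 27.4 and 27.7 CPM in the IL-4/C1q and IL-1α/TNF-α/C1q libraries, with miR-141-3p at 0 in both, against 3212 CPM in the untreated library. For the 5 erythroid and serum markers the sums were 1386 and 1054 CPM in those treated libraries, against 8847 CPM.

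The family was led by miR-181a-5p in every library. miR-181a-5p stood at 6812 CPM with IL-4/C1q and 6958 CPM with IL-1α/TNF-α/C1q, against 12616 CPM in the untreated library. The untreated library was thus the highest, and the 2 treated ones lay close together. Among rat-named miRNAs it ranked 21 and 22 in the treated libraries, against 14 in the untreated one. miR-181b-5p had 4767 CPM with IL-4/C1q and 5289 CPM with IL-1α/TNF-α/C1q, against 6336 CPM in untreated cells. The order of libraries was the same at the top, with a smaller gap.

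The chromosome 19 pair went the other way. miR-181d-5p reached 1266 CPM with IL-4/C1q and 1361 CPM with IL-1α/TNF-α/C1q, against 847 CPM in the untreated library. miR-181c-5p had 234 and 248 CPM in these treated libraries, against 203 CPM. For both, the untreated library was the lowest of the 3.

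The minor 3p arms followed their hairpins. miR-181c-3p had 145 CPM with IL-4/C1q and 152 CPM with IL-1α/TNF-α/C1q, against 101 CPM in untreated cells. miR-181d-3p was seen with 16 counts with IL-4/C1q and 38 with IL-1α/TNF-α/C1q, against 0 in the untreated library. Like the 5p arms of their hairpins, both were lowest in the untreated library.

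The 3p arms of the a and b hairpins had their highest levels in the untreated library, except the rarest one. miR-181a-1-3p had 50.5 CPM with IL-4/C1q and 56.2 CPM with IL-1α/TNF-α/C1q, against 88.1 CPM in untreated cells. miR-181a-2-3p had 18.4 and 14.2 CPM in the treated libraries, against 24.5 CPM. miR-181b-1-3p, the 3p arm of the second hairpin on chromosome 13, was rarer. Its levels were 7.07 CPM with IL-4/C1q and 5.76 CPM with IL-1α/TNF-α/C1q, against 9.65 CPM in untreated cells. miR-181b-2-3p had 7 counts with IL-4/C1q, 12 with IL-1α/TNF-α/C1q and 5 in untreated cells, too few to order them.

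**Figure D1:**
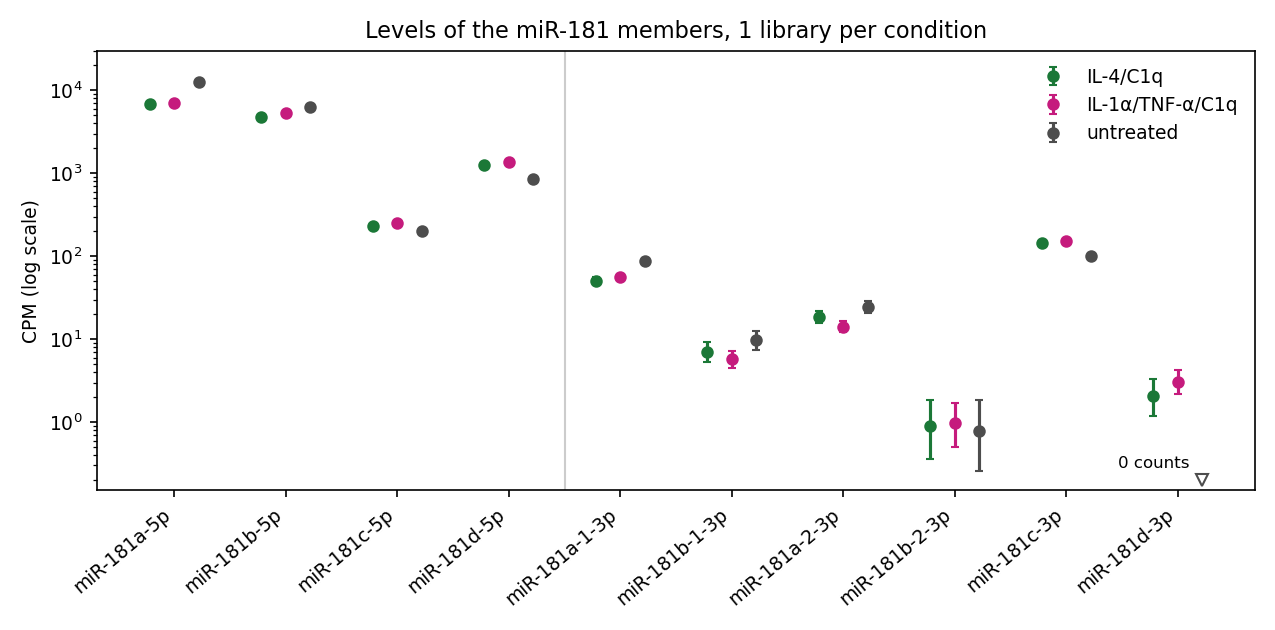
Level of each miR-181 member in CPM on a log axis, with 5p arms left and 3p arms right of the grey line; each point is 1 library and bars are Clopper-Pearson 95% intervals, smaller than the point for abundant members. Points of miR-181a-5p lie at 6812 and 6958 CPM in the treated libraries and at 12616 CPM in the untreated one, while those of miR-181d-5p lie at 1266, 1361 and 847 CPM; the open triangle marks miR-181d-3p at 0 counts in the untreated library, drawn at the bottom of the axis because a log axis has no 0.

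Within a library the order of the members was the same down to place 8 in all 3: miR-181a-5p, miR-181b-5p, miR-181d-5p, miR-181c-5p, miR-181c-3p, miR-181a-1-3p, miR-181a-2-3p and miR-181b-1-3p. Most neighbours in this order had intervals that did not overlap. The exceptions were miR-181d-3p and miR-181b-2-3p in the IL-4/C1q library, and in the untreated library these same 2 and the neighbours miR-181c-3p and miR-181a-1-3p. Set directly against each other, miR-181c-3p had 2.87 and 2.70 counts for each count of miR-181a-1-3p in the treated libraries, against 1.14 (95% interval 1.02 to 1.28) in the untreated one.

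The IL-4/C1q comparison asked which miRNAs differed from untreated astrocytes. A miRNA was called when its ratio reached 2-fold, its interval left out 1 and the higher count was 50 or more. Of the 10 members 8 had enough counts and 0 were called, against 36.5% of 482 miRNAs in the whole table (13.3% higher and 23.2% lower). miR-181a-5p was 1.85-fold lower (1.83 to 1.87) and so came closest to the limit among them. Its log2 ratio of −0.89 lay just outside the middle range of all tested miRNAs, whose quartiles were −0.82 and 0.47, and further outside that of the rat-named ones, −0.51 and 0.63. miR-181a-1-3p was 1.74-fold lower (1.53 to 1.99), miR-181b-5p 1.33-fold (1.31 to 1.35) and miR-181a-2-3p 1.33-fold (1.06 to 1.69). For miR-181b-1-3p the interval included 1 (1.37-fold lower, 0.933 to 2.003). On the other side miR-181d-5p was 1.49-fold higher (1.44 to 1.54), miR-181c-3p 1.44-fold (1.30 to 1.59) and miR-181c-5p 1.15-fold (1.07 to 1.24).

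By the interval alone, 3 of the 8 tested members were higher and 4 lower with IL-4/C1q, where the share of all tested miRNAs was 35.5% higher and 49.8% lower. Of the rat-named ones 41.2% were higher and 45.2% lower. The members' median log2 ratio was −0.41, against −0.17 over all and −0.03 over the rat-named ones. At a limit of 1.5-fold, 0 members were higher and 2 lower (miR-181a-5p and miR-181a-1-3p), against 21.4% and 32% of all tested miRNAs. The 2 remaining members had fewer than 50 counts in the higher library. miR-181d-3p was at least 2.60-fold higher, computed against a floor of 5 counts in the untreated library, and miR-181b-2-3p had a ratio of 1.14 with an interval of 0.311 to 4.54.

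The IL-1α/TNF-α/C1q comparison asked the same of the inflammatory mixture, against the same untreated library, so the 2 comparisons are not independent. Again 0 of 8 tested members were called, against 34.9% of 505 miRNAs (13.7% higher and 21.2% lower). miR-181a-5p was 1.81-fold lower (1.80 to 1.83), with a log2 ratio of −0.86 against quartiles of −0.77 and 0.60 over all tested miRNAs. Both its 3p partners and miR-181b-1-3p were lower as well. miR-181a-2-3p was 1.73-fold (1.38 to 2.16), miR-181b-1-3p 1.68-fold (1.17 to 2.39) and miR-181a-1-3p 1.57-fold (1.40 to 1.76) lower. miR-181b-5p was 1.20-fold lower (1.18 to 1.21). miR-181d-5p was 1.61-fold higher (1.56 to 1.66), miR-181c-3p 1.51-fold (1.38 to 1.65) and miR-181c-5p 1.22-fold (1.14 to 1.30).

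By the interval alone, 3 members were higher and 5 lower after the inflammatory mixture, where 39% and 44% of all tested miRNAs were. Of the rat-named ones 45.0% were higher and 39.0% lower. The median log2 ratio was −0.44 over the members, −0.06 over all and 0.04 over the rat-named ones. miR-181d-3p was at least 3.90-fold higher against the floor. For miR-181b-2-3p the ratio was 1.23 with an interval of 0.403 to 4.46. At 1.5-fold, 2 members were higher (miR-181d-5p and miR-181c-3p) and 4 lower (miR-181a-5p and the 3p arms of the preceding paragraph), against 25.7% and 28.7% of all tested miRNAs.

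**Figure D2:**
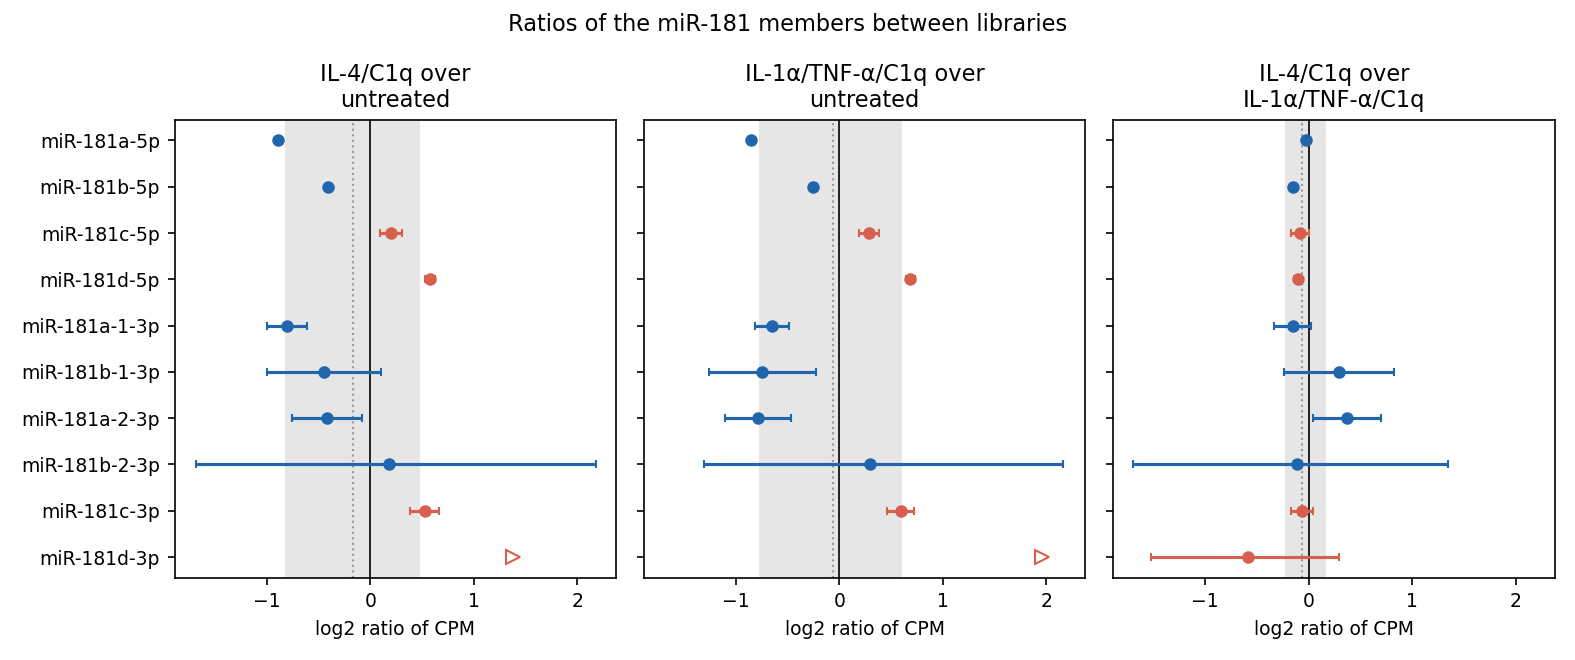
Log2 ratio of CPM of each miR-181 member in the 3 comparisons, with exact 95% counting intervals; blue marks members of the a and b hairpins, red those of the c and d hairpins, the grey band the middle range and the dotted line the median of all tested miRNAs, and open arrows lower bounds against a floor of 5 counts. Against the untreated library the abundant a and b members lie left of 0, such as miR-181a-5p at −0.89 and −0.86, and the c and d members right of it, such as miR-181d-5p at 0.58 and 0.68.

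Set directly against each other, the treated libraries hardly differed in miR-181. The third comparison, IL-4/C1q over IL-1α/TNF-α/C1q, called 0 of 8 tested members, against 2.18% of 459 miRNAs (1.09% in each direction). At 1.5-fold it was again 0, against 4.58% higher and 4.36% lower. The members' median log2 ratio was −0.07, against −0.06 over all and −0.07 over the rat-named ones. Only miR-181a-2-3p was higher with IL-4/C1q by its interval, 1.29-fold (1.03 to 1.62), at 143 against 175 counts in libraries of unequal depth. miR-181b-5p was 1.11-fold lower (1.10 to 1.12), miR-181d-5p 1.07-fold lower (1.05 to 1.10) and miR-181a-5p 1.02-fold lower (1.01 to 1.03). By the interval alone these were 1 higher and 3 lower, where the share of all tested miRNAs was 22.9% and 37%. The direction of miR-181a-5p turned with the scaling: its log2 ratio was −0.031 as reported and 0.021 with edgeR TMM factors. For miR-181c-5p, miR-181c-3p, miR-181a-1-3p and miR-181b-1-3p the intervals included 1. This comparison does not use the untreated library.

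Summed over its 10 members, the family held 1.33% of the counts of the IL-4/C1q library (Clopper-Pearson 95% interval 1.32 to 1.34%) and 1.41% (1.40 to 1.42%) of the IL-1α/TNF-α/C1q library, against 2.02% (2.01 to 2.03%) of the untreated library. The sum was thus 1.52-fold lower (1.51 to 1.53) with IL-4/C1q and 1.44-fold lower (1.43 to 1.45) with IL-1α/TNF-α/C1q. It follows mostly miR-181a-5p. The 3p arms together stood at 224 CPM and 232 CPM in the treated libraries, against 224 CPM in the untreated one, since higher miR-181c-3p and lower miR-181a-1-3p offset each other. In EV RNA, fewer vesicles of a given source and less miRNA per vesicle cannot be told apart.

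Shares within the family do not depend on how libraries are scaled. miR-181a, both arms together, made up 51.7% of the family counts with IL-4/C1q (51.4 to 52.0%) and 49.9% with IL-1α/TNF-α/C1q (49.7 to 50.1%), against 62.9% in untreated cells (62.7 to 63.2%). miR-181b made up 35.9% and 37.6% in the treated libraries, against 31.4%. The share of a was thus lower in the treated libraries and that of b higher. miR-181d made up 9.53% with IL-4/C1q and 9.68% with IL-1α/TNF-α/C1q, against 4.19% in untreated cells. miR-181c made up 2.85% and 2.84%, against 1.503%. Together miR-181c and miR-181d held 12.4% (12.2 to 12.6%) and 12.5% (12.4 to 12.7%) of the family counts in the treated libraries, against 5.69% (5.57 to 5.82%) in the untreated library. Counting only 1 of the 2 equal rows of miR-181a-5p and of miR-181b-5p put these shares at 21.9% and 22.1%, against 10.7%.

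**Figure D3:**
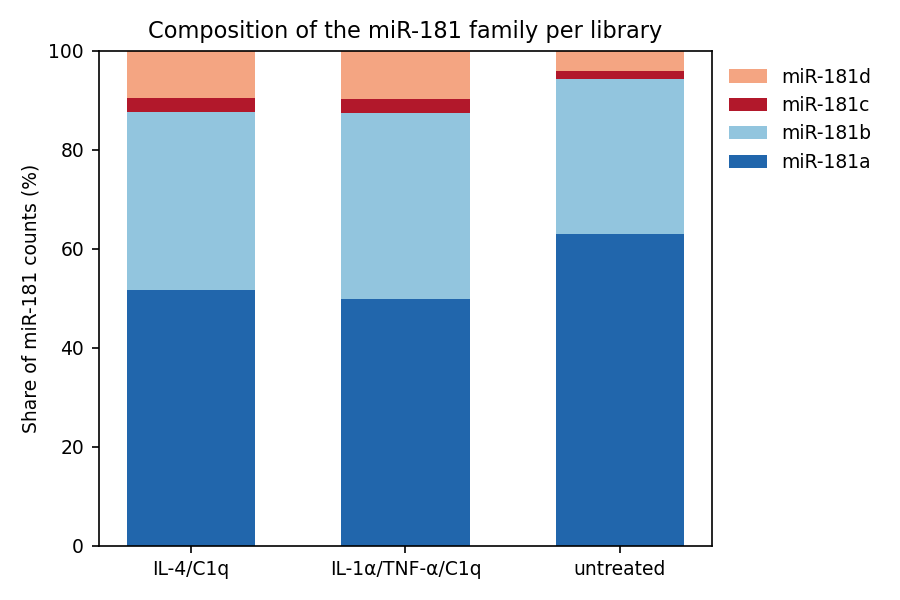
Share of miR-181 counts held by miR-181a, b, c and d, both arms together, in percent, 1 stacked bar per library. miR-181c and miR-181d together take 12.4% and 12.5% in the IL-4/C1q and IL-1α/TNF-α/C1q libraries and 5.69% in the untreated library.

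Both arms gave this shift separately, but mostly through different members. With IL-4/C1q the 5p counts were 9849 for miR-181d-5p and 1821 for miR-181c-5p. The 3p counts were 1127 for miR-181c-3p and 16 for miR-181d-3p, so the 3p ratios say little about miR-181d. Among the 5p arms, miR-181c-5p with miR-181d-5p had 0.130 counts for each count of miR-181a-5p with miR-181b-5p with IL-4/C1q and 0.131 with IL-1α/TNF-α/C1q, against 0.0554 in the untreated library. The ratio was 2.34 times (2.26 to 2.41) that of untreated cells with IL-4/C1q and 2.37 times (2.30 to 2.44) with IL-1α/TNF-α/C1q. Among the 3p arms, the chromosome 19 pair had 2.55 counts for each count of the chromosome 13 pair with IL-4/C1q and 2.49 with IL-1α/TNF-α/C1q, against 1.03 in untreated cells. That is a change by 2.48 times (2.12 to 2.90) and 2.42 times (2.11 to 2.79). Against the 3p arms of the chromosome 3 pair the ratios were 7.62 and 10.2, against 3.98, a change by 1.92 times (1.504 to 2.44) and 2.56 times (2.04 to 3.23). In each of these ratios the untreated library was the lowest, and its interval did not overlap those of the treated libraries.

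The chromosome 13 and chromosome 3 pairs, which give the same miR-181a-5p and miR-181b-5p, can be told apart only by their 3p arms. The chromosome 3 pair had 0.335 counts for each count of the chromosome 13 pair with IL-4/C1q (0.276 to 0.404) and 0.245 with IL-1α/TNF-α/C1q (0.207 to 0.288), against 0.259 (0.216 to 0.309) in untreated cells. The ratio with IL-4/C1q was 1.29 times (1.003 to 1.67) that of untreated cells and 1.37 times (1.07 to 1.75) that with IL-1α/TNF-α/C1q, and the ratio with IL-1α/TNF-α/C1q was 0.945 times (0.747 to 1.20) that of untreated cells. The summed 3p level of each pair was lower in both treated libraries than in the untreated one.

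**Figure D4:**
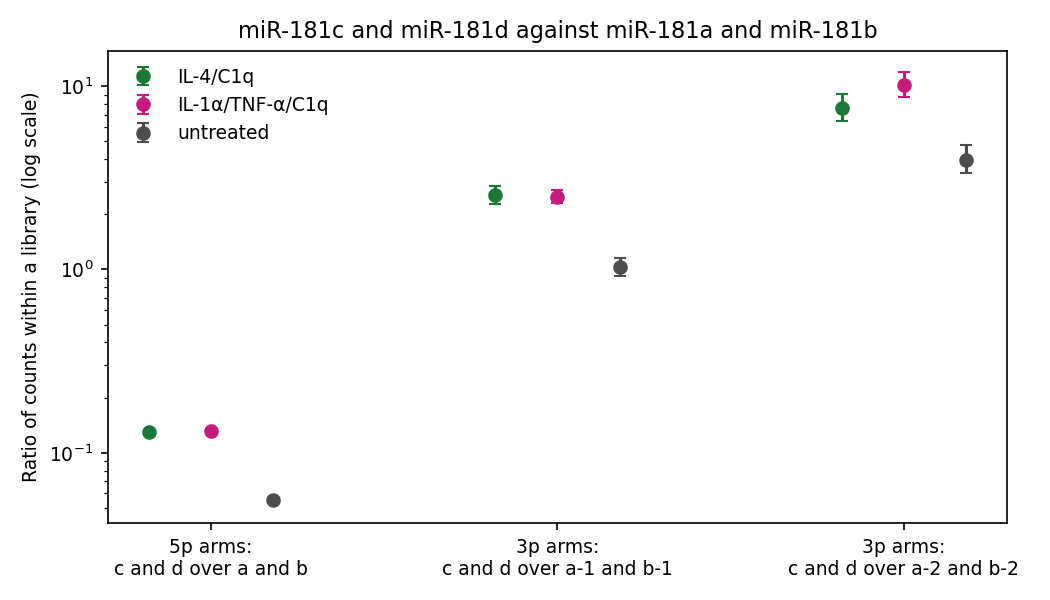
Ratio of counts of miR-181c and miR-181d to counts of miR-181a and miR-181b within each library, for the 5p arms and for the 3p arms of the chromosome 13 pair (a-1 and b-1) and the chromosome 3 pair (a-2 and b-2), on a log axis with exact 95% counting intervals. In each group of points the treated libraries lie above the untreated one, such as 2.55 and 2.49 against 1.03 in the middle group.

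Single pairs of like sequences showed the same. miR-181d-5p, 1 base from miR-181b-5p, had 0.266 counts for each count of it with IL-4/C1q and 0.257 with IL-1α/TNF-α/C1q, against 0.134 in untreated cells. miR-181c-5p had 0.0344 and 0.0356 counts for each count of miR-181a-5p in the treated libraries, against 0.0161. Within the a and b pairs there was a smaller shift from a to b, with 0.700 and 0.760 counts of miR-181b-5p for each of miR-181a-5p in the treated libraries, against 0.502.

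The balance of arms differed between hairpins. miR-181c gave 1.62 counts of its 5p arm for each 3p count with IL-4/C1q (1.499 to 1.74) and 1.64 with IL-1α/TNF-α/C1q (1.54 to 1.73), against 2.02 (1.84 to 2.23) in untreated cells. For miR-181a the 5p arm had 98.9 and 98.8 counts for each 3p count in the treated libraries, against 112 (104 to 121) in the untreated library. In all of these hairpins the 5p arm led. miR-181b had 598 and 786, against 607, with wide intervals. For miR-181d there were 616 counts of the 5p arm for each 3p count with IL-4/C1q (379 to 1077) and 441 with IL-1α/TNF-α/C1q (321 to 624). In the untreated library miR-181d-3p was at 0 counts beside 5355 counts of the 5p arm, so no ratio is given there.

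Markers of other cells also differed between the libraries. The 4 neuron markers, all above 0, summed to 4884 CPM with IL-4/C1q and 5196 CPM with IL-1α/TNF-α/C1q, against 8766 CPM in untreated cells, with 3 of the 4 lower in both treated libraries and the rare miR-138-5p higher. All marker sums in this report include rows of any species prefix. The 5 myeloid and lymphoid markers summed to 264 and 227 CPM in the treated libraries, against 334 CPM, with miR-142-3p at 0 in both treated libraries and at 5 counts in the untreated one. Of these 5, 4 were lower in both treated libraries, while miR-342-3p, which held most of the treated sums, was higher, at 195 and 214 CPM, against 153 CPM. Among the 4, the untreated count of miR-142-3p equals the floor of 5. The rare miR-150-5p differed little, at 5.91 and 4.22 CPM, against 6.49 CPM. For these lists, too, the sum was highest in the untreated library. Oligodendrocyte markers summed to 81.1 and 85.4 CPM, against 144 CPM, with miR-219a-2-3p at 0 in the untreated library. The 2 endothelial markers summed to 48.3 and 34.9 CPM, against 68.5 CPM. The part of these markers in the miR-181 differences was not tested. With totals of rat-named rows that leave out the epithelial and the erythroid and serum markers, an alternative chosen after seeing the data, the log2 ratio of miR-181a-5p to the untreated library was −0.91 with IL-4/C1q and −0.88 with IL-1α/TNF-α/C1q, and that of miR-181d-5p was 0.55 and 0.66.

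The miRNAs with a pattern most like that of miR-181a-5p, by the distance between their 2 log2 ratios to the untreated library over these 3 libraries, were miR-34a-5p, miR-148a-3p and miR-129-5p, at distances of 0.0867, 0.0951 and 0.185 on the log2 scale among 129 candidates. miR-34a-5p had 156 and 159 CPM in the IL-4/C1q and IL-1α/TNF-α/C1q libraries, against 276 CPM in the untreated library. miR-148a-3p had 3198 and 3059 CPM, against 5544 CPM. miR-129-5p, a neuronal miRNA that is also one of the neuron markers, had 2657 and 2909 CPM, against 5539 CPM.

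The difference of the miR-181 sum from the untreated library was larger than that of 3 other families. The miR-30 family with 11 names was 1.34-fold lower (1.336 to 1.348) with IL-4/C1q and 1.21-fold lower (1.20 to 1.21) with IL-1α/TNF-α/C1q than in the untreated library. The let-7 and miR-98 family with 15 names was 1.25-fold (1.24 to 1.25) and 1.07-fold (1.07 to 1.07) lower. The miR-29 family with 3 names was 1.18-fold (1.18 to 1.19) and 1.09-fold (1.08 to 1.10) lower. For miR-181 the folds were 1.52 and 1.44, and these intervals, which cover counting error only, do not overlap those of the other families. As log2 ratios, the miR-181 sums of −0.60 and −0.52 lay between the quartiles of all single tested miRNAs, −0.82 to 0.47 and −0.77 to 0.60. Against the rat-named ones alone, both sums lay below the lower quartiles, −0.51 and −0.47.

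Of 12 miRNAs listed as tied to inflammation 11 had rat-named rows. With IL-4/C1q 4 were called lower and 0 higher, where 23.2% and 13.3% of all tested miRNAs were, and the median log2 ratio was −0.24, against −0.17 over all. With IL-1α/TNF-α/C1q 3 were lower and 0 higher, where 21.2% and 13.7% of all were, and the median was −0.23, against −0.06. The highest was miR-31a-5p with IL-4/C1q (281 against 198 CPM) and miR-155-5p, known from activated immune cells, with IL-1α/TNF-α/C1q (477 against 298 CPM). The lowest were miR-147 with IL-4/C1q (3.08 against 16.3 CPM) and the neuronal miR-124-3p with IL-1α/TNF-α/C1q (24.9 against 97.5 CPM). IL-4/C1q over IL-1α/TNF-α/C1q called 1 of 11 lower, miR-147, with 24 against 82 counts in libraries of unequal depth. At 3.08 against 6.65 CPM, miR-147 was 2.16-fold lower (1.35 to 3.55). The highest was miR-124-3p with a ratio of 1.10 (0.919 to 1.31). The list's median there was −0.07, against −0.06 over all, of which 1.09% were called lower.

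Of 14 miRNAs listed as tied to ischemia 11 had rat-named rows, and 2 were called lower and 0 higher against the untreated library in each treated library. Of all tested miRNAs 23.2% were lower and 13.3% higher with IL-4/C1q, and 21.2% and 13.7% with IL-1α/TNF-α/C1q. The list's medians were −0.40 for IL-4/C1q and −0.15 for IL-1α/TNF-α/C1q, against −0.17 and −0.06 over all. The hypoxia-induced miR-210-3p was the highest in both, at 207 and 182 CPM, against 144 CPM. The liver miRNA miR-122-5p was the lowest, at 1222 and 896 CPM, against 7104 CPM. Between the treated libraries 0 of 11 were called, against 2.18% of all tested miRNAs. The median was −0.02, against −0.06 over all. The ratios ran from miR-122-5p at 1.36-fold higher (1.33 to 1.40) with IL-4/C1q down to miR-29b-3p, with 770 against 957 CPM.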

How the data were processed

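Small RNA of EVs from rat astrocytes was compared between 3 libraries, 1 per condition, grouped by the treatment label. The authors deposited, per the file headers, a raw column, which holds estimated counts not all whole, and a normalized column, a signal equal to the raw column times 1 constant per library (1.14 for IL-4/C1q, 0.684 for IL-1α/TNF-α/C1q, 1.25 for untreated). The sources used here name no aligner, counter, build or miRNA database. Rows were summed by the name ahead of the end tag, substitution-tagged rows included; predicted candidates without a miRNA name (0.034%, 0.036% and 0.066% of counts) were left out. End tags such as R+2 were ignored. The rule on size asks for 2-fold, a 95% interval excluding 1 and 50 counts. Shares carry Clopper-Pearson intervals, ratios exact conditional binomial intervals and ratios of ratios normal intervals on the log scale, all of rounded counts except the last. The floor of 5 counts was set because 0 of 276, 333 and 274 unrepeated whole values above 0 lay under it. Members and lists were chosen with earlier results of these data known. Members are all named; of each list the highest and lowest ratio are named, with the 3 nearest patterns among rat-named miRNAs of at least 1000 counts in each library. Alternatives used TMM factors of edgeR 4.0.16, size factors of DESeq2 1.42.0, other totals, limits and row choices. The interval code was tested on simulated data. Sequences are from RefSeq (GRCr8).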

Additional observations from a re-analysis of the deposited data

How the results depend on the processing

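No member was called under 7 scalings in any comparison, and the directions against the untreated library held in all 7 for every member. Over these scalings the log2 ratio of miR-181a-5p ranged from −0.91 to −0.72 with IL-4/C1q and from −0.88 to −0.76 with IL-1α/TNF-α/C1q, and that of miR-181d-5p from 0.55 to 0.75 and from 0.66 to 0.78. The family sum ranged from −0.63 to −0.44 and from −0.55 to −0.42. DESeq2 size factors shifted all log2 ratios by 0.17 with IL-4/C1q and by 0.10 with IL-1α/TNF-α/C1q, and split the calls with IL-4/C1q into 83 higher and 96 lower, against 64 and 112 as reported. For IL-4/C1q over IL-1α/TNF-α/C1q, miR-181a-5p reversed with TMM factors (0.021), DESeq2 size factors (0.038), totals without miR-21-5p (0.019) and the deposited normalized column (0.045), and miR-181c-3p with DESeq2 size factors (0.0033) and the deposited column (0.011), values near 0 throughout.

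At a minimum of 10 counts 1 member, miR-181d-3p, was called higher in each comparison with the untreated library. Of all miRNAs tested at that minimum, 88 of 672 were called higher with IL-4/C1q and 107 of 694 with IL-1α/TNF-α/C1q. At 1.5-fold 2 members were called with IL-4/C1q and 6 with IL-1α/TNF-α/C1q. Over all miRNAs, in the order IL-4/C1q over untreated, IL-1α/TNF-α/C1q over untreated and IL-4/C1q over IL-1α/TNF-α/C1q, calls numbered 176, 176 and 10 as reported. They were 306 of 672, 322 of 694 and 49 of 601 tested miRNAs at 10 counts. At 200 counts they were 98 of 330, 102 of 359 and 2 of 323. At 1.5-fold they were 257 of 482, 275 of 505 and 41 of 459. Keeping only the highest row of a name, which drops 1 of 2 equal rows of miR-181a-5p and of miR-181b-5p, put miR-181c and miR-181d at 21.9% and 22.1% of the family in the treated libraries, against 10.7% in the untreated one. No paired analysis was possible because each condition has 1 library and no test was run. The totals of rat-named rows without epithelial, erythroid and serum markers were added after the data were seen. Depth limits miR-181b-2-3p and miR-181d-3p, with at most 12 and 38 counts.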

Other observations

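Rows of the family under other species prefixes held few counts and are not among the members above; they count among all miRNA names where these had enough counts. The opossum-named mdo-miR-181a-5p had 62 counts with IL-4/C1q and 134 with IL-1α/TNF-α/C1q, against 197 in untreated cells, or 7.97 and 10.9 CPM, against 31.2 CPM. The opossum-named mdo-miR-181b-5p had 0 and 0 counts, against 15, and the guinea pig-named cpo-miR-181a-2-3p 0 and 0, against 21. The prefix is that of the database entry, and the organism of the RNA was not tested.

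In RefSeq (GRCr8) the hairpins of miR-23a, miR-27a and miR-24-2 lie on the same chromosome as Mir181c and Mir181d, on the opposite strand, with 28447 bases between Mir23a and Mir181c. These miRNAs were picked after their values were seen. miR-23a-3p had 4729 CPM with IL-4/C1q and 5091 CPM with IL-1α/TNF-α/C1q, against 4865 CPM in untreated cells. miR-27a-3p had 5571 and 5564 CPM, against 4908 CPM, 1.14-fold (1.12 to 1.15) and 1.13-fold (1.12 to 1.15) higher. miR-24-3p, which is also made from another hairpin, had 5112 and 4924 CPM, against 5211 CPM.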
